A study of Mus musculus with 12 samples.

Results

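Adipocyte nuclei of iBAT were compared between mice of 1 and 2 months kept at room temperature. The nuclei were chosen by their counts of 12 genes. A nucleus was kept when it had at least 300 detected genes and at most 10% of its unique molecular identifiers (UMIs, each standing for 1 captured RNA molecule) from mitochondrial genes. It was taken as an adipocyte when Adipoq, Plin1, Plin4, Lipe, Cidec and Acsl1 together had at least 3 UMIs and more than Flt1, Ptprb, Lama2, Dcn, Mrc1 and Ptprc together. This gave 8644 adipocyte nuclei of 11398 kept at 1 month (75.8%, 95% exact binomial interval 75.0 to 76.6) and 10297 of 12497 at 2 months (82.4%, 81.7 to 83.1). These 18941 nuclei were among 74816 adipocyte nuclei and 106898 kept nuclei of the 12 libraries. The levels and the adipocyte share of the 12 selecting genes are a description of the choice and support nothing here.

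The series measured single-nucleus RNA from mouse adipose depots, named by the labels iBAT, mPRAT, lPRAT and iWAT, at different ages and temperatures. The mice of both iBAT groups were male C57BL/6J on normal chow at 22 °C, aged 4 weeks in the 1-month group and 8 weeks in the 2-month group, with no transgene or treatment named. Nuclei were sorted on a DNA stain and sequenced with a 10x Genomics 3′ chemistry. Each group was 1 library, and the number of animals behind it is not given in the labels, so no difference below has a replicate check and none was tested.

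Brown adipocytes burn fatty acids and glucose for heat through the mitochondrial uncoupling protein Ucp1. Noradrenaline from sympathetic nerves acts on β-adrenergic receptors, raises cyclic AMP and thereby drives lipolysis and the transcription of thermogenic genes, among them Ppargc1a and the thyroid hormone activating enzyme Dio2. Mouse pups stop suckling within the first weeks of life, and the ages compared here come after the usual time of weaning.

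The summed UMIs of the adipocyte nuclei were 13941665 at 1 month and 20656032 at 2 months, with medians of 1342 and 1531 UMIs per nucleus. Levels are CPM, the UMIs of a gene divided by these sums and scaled to a total of 1000000, and intervals are 95% intervals that cover counting error only. The 2 libraries shared 38 barcodes, of which 24 were adipocyte nuclei in both. At the edge of the choice, 533 nuclei at 1 month and 402 at 2 months had 2 UMIs of the 6 adipocyte genes and were left out, with Ucp1 at 292 and 181 CPM. The 712 and 470 nuclei with 3 such UMIs were kept, with Ucp1 at 336 and 354 CPM.

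The selecting genes Adipoq, Plin1, Lipe and Cidec stood at 108.0, 760.2, 1324 and 585 CPM at 1 month and at 119, 814, 1159 and 612 CPM at 2 months. The label was checked on genes that the choice did not use. Pparg, the master transcription factor of adipocytes, stood at 3356 CPM at 1 month and 3869 at 2 months, against 2101 and 1848 CPM in the other-cell nuclei, those in which the 6 non-adipocyte genes outweighed the adipocyte genes. Of the brown adipocyte markers, Cidea stood at 945 and 865 CPM against 110.0 and 113 in other-cell nuclei. Kcnk3, a potassium channel gene of brown adipocytes, stood at 674 and 762 CPM against 52.1 and 76.8. Zic1, a marker of the brown lineage, was near the floor of the data at 5.74 and 4.41 CPM and was not above the other-cell nuclei.

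Skeletal muscle RNA differed between the 2 libraries. The sum of 12 muscle markers, led by the giant sarcomere protein gene Ttn, was 733 CPM in the adipocyte nuclei at 1 month and 3799 CPM at 2 months, and no marker was at 0 counts. In other-cell nuclei the same sum was 1249 CPM at 1 month and 4215 CPM at 2 months. It was thus above that of adipocyte nuclei in both libraries, and higher at 2 months in both classes. In kept nuclei that were neither adipocyte nor other-cell, the same sum was 5259 and 37382 CPM. The adipocyte nuclei with at least 2 muscle UMIs numbered 289 (3.34%) at 1 month and 965 (9.37%) at 2 months. Those with at least 10 muscle UMIs numbered 21 and 195, had a median of 5 UMIs of the adipocyte genes, and drew 49% and 54.3% of these from Acsl1, an acyl-CoA synthetase gene that muscle also uses. The Acsl1 share over all adipocyte nuclei is not given here. With Acsl1 left out of the choice, all 7 muscle markers with a mean of at least 10 CPM were still at least 1.5-fold higher at 2 months. Without the nuclei with 2 or more muscle UMIs, the sum of the 12 markers was 72.8 and 133 CPM, a drop set by the removal itself. Counts of all genes are also given without those nuclei. They are called the muscle nuclei below, a name that stands for 2 or more muscle UMIs and not for a cell type.

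The sums of the other marker lists in adipocyte nuclei were lower than in other-cell nuclei, with the smallest fold difference for Schwann markers. The 7 endothelial markers summed to 77.5 and 58.5 CPM, against 3430 and 3094 CPM in other-cell nuclei. The 7 progenitor markers summed to 231 and 154 CPM against 1435 and 2201. Macrophage markers summed to 22.7 and 9.05 CPM against 419 and 232, and lymphocyte markers to 12.5 and 10.6 against 227 and 158. Red blood cell markers summed to 6.38 and 6.34 CPM against 20.3 and 16.2. Mural markers summed to 90.9 and 87.6 CPM against 636 and 613. Schwann markers summed to 169 and 207 CPM against 425 and 420.2. No marker of these lists was at 0 counts in either library.

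At the call limit, 1.5-fold on the scale of log2(CPM + 10), 267 of 8394 genes counted (3.18%) were higher at 2 months and 318 (3.79%) were lower. A gene was counted when its mean over the 2 libraries was at least 10 CPM, and "rose" and "fell" are used below for genes past the limit. The median log2 ratio of all genes counted was 0.01. Without the nuclei with muscle UMIs, 182 of 8279 genes (2.2%) rose and 322 (3.89%) fell. Of the 267 rises, 155 remained without those nuclei and 112 did not, while 296 of the 318 falls remained. With the library totals rescaled by the TMM method, 334 genes rose and 249 fell, and with median-of-ratios scaling 354 rose and 244 fell, so that the share of rises among the calls went from 45.6% to 57.3% and 59.2%.

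**Figure D1:**
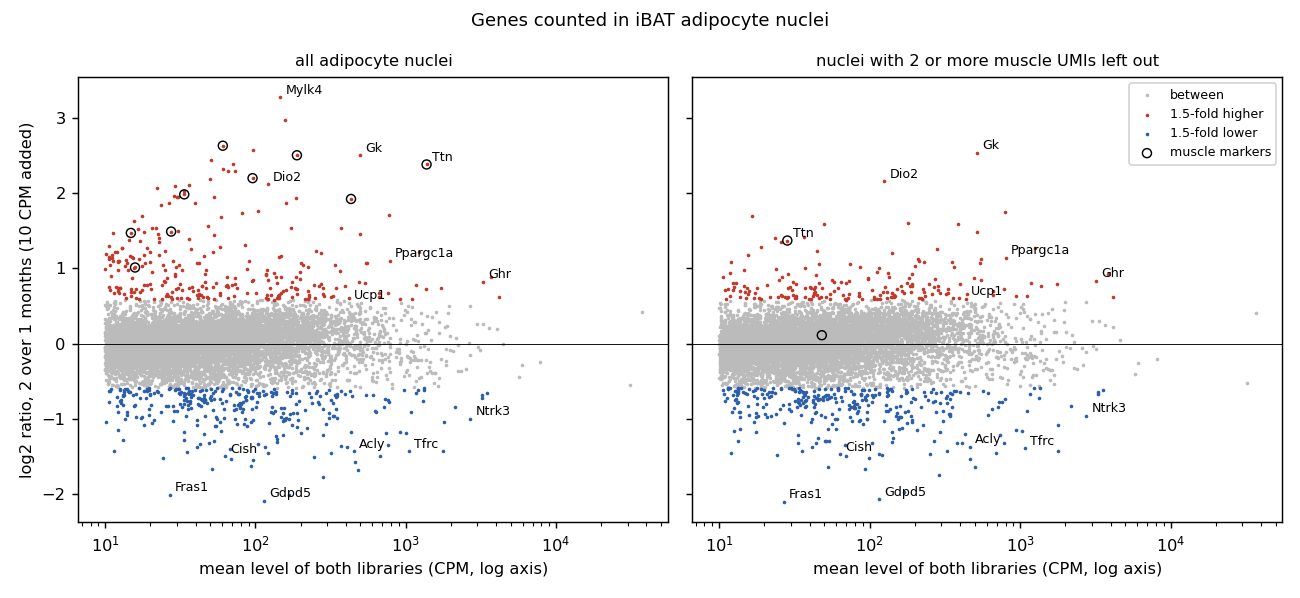
The log2 ratio of 2 over 1 months (vertical axis, 10 CPM added) is plotted against the mean level of both libraries (CPM, log axis) for each gene counted, in all adipocyte nuclei on the left and without nuclei with 2 or more muscle UMIs on the right. Red and blue points are genes at least 1.5-fold higher or lower, and rings are muscle markers. The nuclei were left out by these same markers, so the loss of most rings on the right is set by that removal. Most of the points near them at the top left are also gone, while Gk, Dio2 and the falls keep their places.

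The largest rises were taken among genes at least as high in adipocyte as in other-cell nuclei at 2 months, without the muscle markers and the other genes that the naming rule leaves out. Of the 12 largest of these, 10 were not past the limit, or no longer counted, without the nuclei with muscle UMIs. Mylk4, a kinase gene of the myosin light chain kinase family, had 19.4 CPM at 1 month and 273 CPM at 2 months. Trdn, which encodes triadin of the calcium release site of muscle, had 27.9 and 287 CPM. The junctophilin genes Jph2 and Jph1, with Xirp2, Slc8a3, Hs3st5, Ctnna3, Kcnn2 and Ppp1r3a, were the others, at log2 ratios from 1.70 to 2.44. Jph1 was still counted without those nuclei and was not past the limit, and the remaining 9 had a mean under 10 CPM. All 9 muscle markers that were counted rose as well. Their part in these rises was not tested beyond that removal. The calcium pump gene Atp2a1 and the calcium channel gene Ryr1, members of the list for creatine and calcium cycling, rose from 13.7 to 109 CPM and from 16.1 to 127 CPM, and the mean of the 2 libraries was under 10 CPM for both without those nuclei (3.81 and 12.6 CPM for Atp2a1). That list had 6 genes counted, of which these 2 rose and 1, the creatine kinase gene Ckb, fell from 16.1 to 5.28 CPM. Over all genes counted 3.18% rose and 3.79% fell. Without the muscle nuclei 4 genes of the list were counted, none rose and Ckb fell. In nuclei with at least 1000 genes Ckb was not counted, and 3 of 6 genes counted rose.

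Gk and Dio2 were the remaining 2 of the 12 and kept their size without the muscle nuclei. Gk, which encodes glycerol kinase and lets adipocytes reuse the glycerol freed by lipolysis, had 1985 UMIs at 1 month and 17653 at 2 months, or 142 and 855 CPM. The ratio was 6.00 (5.73 to 6.29), and the gene lies on chrX:85701937-85776819, minus strand (GRCm38, GENCODE M21). Dio2, which converts thyroxine to the active hormone T3, had 39.0 CPM (35.8 to 42.4) at 1 month and 202 CPM (196 to 209) at 2 months, a ratio of 5.19 (4.74 to 5.68). Ppargc1a, the coactivator of mitochondrial genes, went from 494 to 1069 CPM, a ratio of 2.17 (2.11 to 2.23). Adrb3, the main β-adrenergic receptor gene of mouse adipocytes, went from 140.4 to 239 CPM, a ratio of 1.70 (1.62 to 1.80). These 4 rises were called under each of the 12 alternatives that kept the 1.5-fold limit. In other-cell nuclei the same 4 genes stood at lower levels and were also higher at 2 months. Gk stood there at 26.6 and 103 CPM, Dio2 at 4.05 and 16.8, Ppargc1a at 60.8 and 145.5 and Adrb3 at 13.9 and 20.2.

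Ucp1 itself (chr8:83290352-83298452, plus strand) stood at 337 CPM (328 to 347) at 1 month and 497 CPM (487 to 506) at 2 months. The ratio of 1.47 (1.42 to 1.53) lay above 1 beyond counting error, and the log2 ratio of 0.55 was just under the limit. Without nuclei with muscle UMIs, it was 0.59 and past the limit, as it was under 4 other alternatives. In other-cell nuclei Ucp1 stood at 46.3 and 71.4 CPM.

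The thermogenic list had 19 of 22 genes counted, of which 4 rose and 2 fell, where 3.18% and 3.79% of all genes counted did. The median log2 ratio was −0.13 against 0.01 for all genes counted. Without the muscle nuclei 5 rose and 1 fell, Ucp1 being the added rise. The 2 that fell were Acot11, an acyl-CoA thioesterase gene linked to brown fat, from 437 to 219 CPM, and Plin5, a coat protein gene of lipid droplets that contact mitochondria, from 201 to 126 CPM. Plin5 was not past the limit without the muscle nuclei, under either rescaling, after thinning before the choice or in the mean over nuclei. Ppara and Ebf2, transcription factor genes of oxidative metabolism and of the brown lineage, had log2 ratios of −0.25 and −0.37 and were not past the limit. Cidea, Kcnk3 and Ucp1 were also among the 13 genes of the list not past the limit. In the respiratory chain, 75 of 86 genes were counted, none rose and 1, Atp5g3, fell from 107 to 61.9 CPM, while without the muscle nuclei 1 rose and 1 fell. The median of that list was 0.15, with Ndufs4 at 246 and 266 CPM.

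The adrenergic and cyclic AMP list had 19 genes counted, of which 5 rose and none fell, against 3.18% and 3.79% of all genes counted, with a median of 0.10. With 1 CPM added and after thinning before the choice, 1 fell. Adcy3, an adenylyl cyclase gene that makes cyclic AMP, went from 187 to 559.6 CPM, a ratio of 2.99 (2.87 to 3.12). Adcy5, another cyclase gene, went from 30.7 to 61.6 CPM. The phosphodiesterase genes Pde3a and Pde3b, whose products break cyclic AMP down, went from 133 to 285 and from 865 to 1491 CPM. In other-cell nuclei Pde3a stood at 178 and 223 CPM. Pde4b, the remaining rise, was at 6.81 and 18.2 CPM, against 78.8 and 98.3 CPM in other-cell nuclei. Its call held under 7 of the 12 alternatives that kept the 1.5-fold limit, and it was not counted without the muscle nuclei. Without them 5 of 18 rose, since Adcy10, the soluble cyclase gene, was then past the limit at 12.4 and 24.2 CPM, while in all adipocyte nuclei its log2 ratio was 0.57. Genes for both the making and the breakdown of cyclic AMP were among the rises, while Gnas, the gene of the stimulatory G protein, had a log2 ratio of −0.33 and Prkar2b, a protein kinase A subunit gene, 0.27.

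The promoters of Dio2 and Ppargc1a are shown because the first holds the full cyclic AMP response element, a sequence bound by CREB family factors, and the other holds only its 5-base part TGACG. The windows are the 250 bases before the RefSeq start (GRCm38.p6), on the gene's strand, and capitals mark TGACG on either strand. TGACG was found in 17.8% of 32851 RefSeq windows of this length, and the full palindrome TGACGTCA, which contains it on both strands, in 1.55%.
Dio2, chr12:90739039-90739288, minus strand: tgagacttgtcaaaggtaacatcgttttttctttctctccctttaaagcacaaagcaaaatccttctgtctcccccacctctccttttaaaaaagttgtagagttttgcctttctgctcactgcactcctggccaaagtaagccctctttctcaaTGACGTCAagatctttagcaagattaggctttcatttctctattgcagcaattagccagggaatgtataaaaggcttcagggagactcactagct
Ppargc1a, chr5:51567726-51567975, minus strand: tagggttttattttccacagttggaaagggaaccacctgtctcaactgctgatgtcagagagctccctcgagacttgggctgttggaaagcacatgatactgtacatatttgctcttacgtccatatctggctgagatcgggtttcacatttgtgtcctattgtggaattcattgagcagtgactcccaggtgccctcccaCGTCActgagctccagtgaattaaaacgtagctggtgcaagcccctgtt
Dio2 held the full palindrome, 88 bases before the start, and Ppargc1a held 1 match of TGACG, 45 bases before it. Ucp1 also held 1 match, and the windows of Gk, Adcy3 and Noct held none. The genes to show were picked with their values known, and a match in these letters is a description of the sequence.

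The other rises that passed without the muscle nuclei were picked after their values were seen. Noct, which encodes the circadian-regulated phosphatase nocturnin, went from 263 to 737 CPM, a ratio of 2.80 (2.70 to 2.91). Adam12, a metalloprotease gene, went from 736 to 1725 CPM, and it also stood higher in other-cell nuclei at 2 months, 730.0 against 526 CPM. Adtrp, whose product hydrolyses a class of fatty acid esters, went from 161 to 383 CPM. Tmem132b, a membrane protein gene, went from 83.9 to 262 CPM, and B3galt2, a galactosyltransferase gene, from 19.4 to 77.1 CPM. Mfsd2a, a lysophospholipid transporter gene, went from 2.44 to 28.6 CPM, and Dhrs9, a dehydrogenase gene, from 8.03 to 37.6 CPM. All of these were called under each of the 12 alternatives that kept the 1.5-fold limit.

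Among genes of fatty acid synthesis, falls outnumbered rises. Of 14 counted, 6 fell and 1 rose, against 3.79% and 3.18% of all genes counted, and 7 were not past the limit. The median log2 ratio was −0.23. Without the muscle nuclei 5 fell and 1 rose, and under TMM and median-of-ratios scaling 4 and 3 fell. Acly, which makes cytosolic acetyl-CoA for lipid synthesis, went from 664 to 241 CPM, a ratio of 0.363 (0.350 to 0.375). Srebf1, the transcription factor gene of the pathway, fell from 193 to 103 CPM, and Fasn, the fatty acid synthase gene, from 432 to 267 CPM. Thrsp and Mlxipl, a lipogenic regulator and the carbohydrate-responsive factor ChREBP, fell from 549 to 336 and from 1462 to 951 CPM. Pnpla3 fell from 522 to 335 CPM. Its call was lost without the muscle nuclei, under both rescalings, after thinning before the choice and in the mean over nuclei. Mlxipl lost its call under both rescalings and Fasn under the median-of-ratios method. The carboxylase genes Acaca and Acacb were not past the limit, at log2 ratios of −0.23 and −0.15. Me1, the malic enzyme gene that supplies NADPH, was the exception and went from 133 to 267 CPM. Among 12 cholesterol synthesis genes none passed the limit in either direction, with a median of 0.00.

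The genes that build and break down triglyceride moved singly. Over all genes counted 3.18% rose and 3.79% fell, and the counts of each list in this paragraph stand beside those shares. Lpin1, a phosphatidate phosphatase gene, fell from 960.4 to 566 CPM and was, with Gk, the only call among 10 triglyceride synthesis genes. Dgat2 and Gpd1, for the last acylation and for glycerol phosphate, had log2 ratios of −0.24 and −0.39. Of 11 lipolysis and droplet genes, Abhd5, the activator of the lipase ATGL, rose from 66.6 to 127 CPM. G0s2, an inhibitor of the same lipase, fell from 225 to 113 CPM, and Plin5 was the other fall. Without the muscle nuclei 1 of these 11 rose and 1 fell, beside 2.2% and 3.89% of all genes then counted. Lpl, the lipase that frees fatty acids from circulating lipoproteins, rose from 587 to 945 CPM, and Slc27a2, a fatty acid transporter gene, from 124 to 227 CPM, with 9 other uptake genes not past the limit. In fatty acid oxidation, 2 of 20 genes counted rose and none fell, and Ehhadh, an enzyme gene of peroxisomes, went from 31.1 to 52.5 CPM. Acadm and Cpt1b, of mitochondria, had log2 ratios of −0.20 and −0.21 and were not past the limit. Ehhadh lost its call with at least 5 adipocyte UMIs or at least 1000 genes per nucleus.

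Of 25 genes of glucose use, 1 rose and 1 fell, beside 3.18% and 3.79% of all genes counted. Gys2, a glycogen synthase gene, rose from 30.3 to 54.0 CPM and Pygl, a glycogen phosphorylase gene, fell from 229 to 142 CPM. The call of Pygl was lost under both rescalings and after thinning before the choice. The branched-chain amino acid list had 18 genes counted and no call, with a median of −0.02. Pfkfb3, a regulator of glycolysis, had a log2 ratio of 0.45 and Bckdhb of the branched-chain dehydrogenase 0.07.

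**Figure D2:**
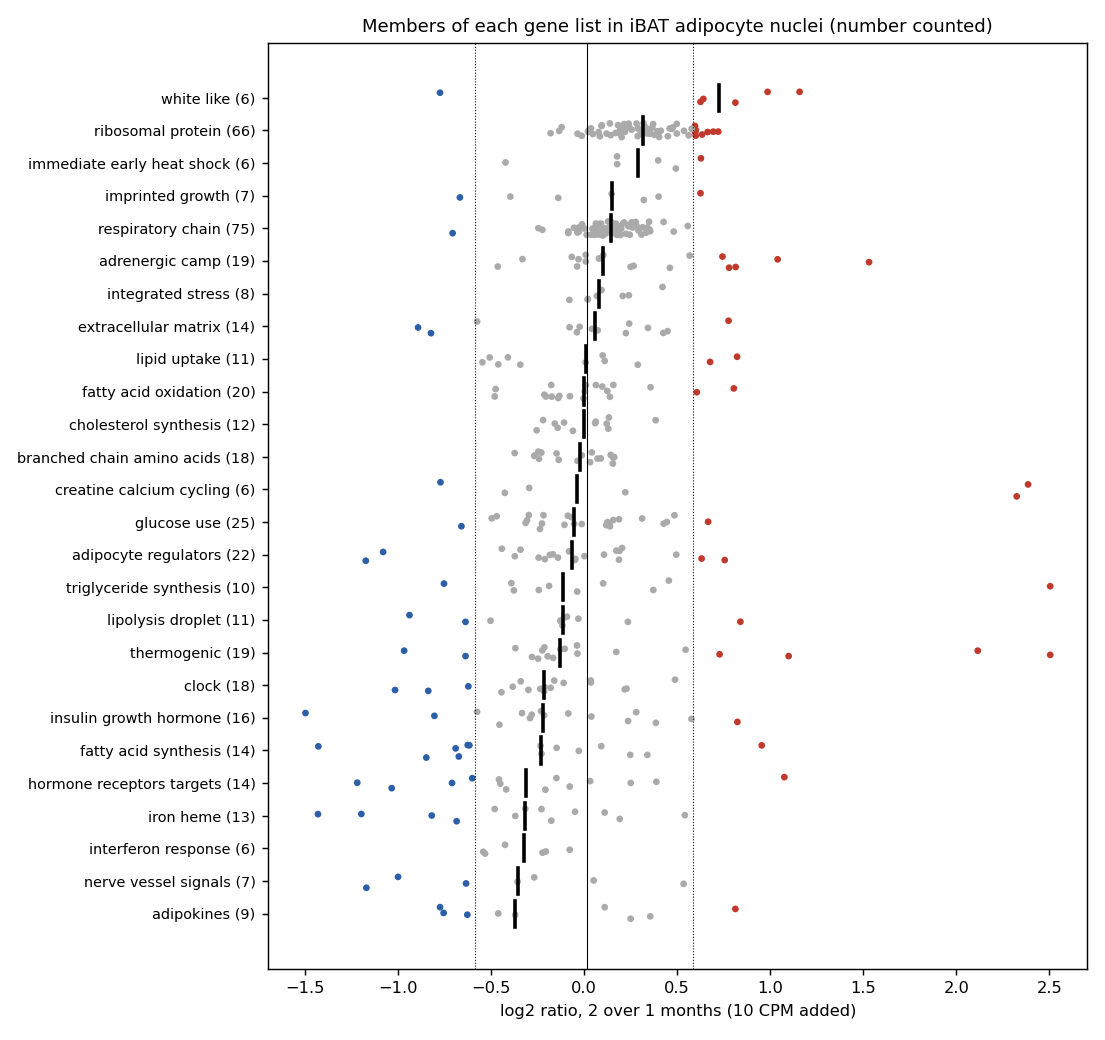
Each point is 1 gene of a list, with its log2 ratio of 2 over 1 months in all adipocyte nuclei (10 CPM added) on the horizontal axis; the number counted stands in brackets, thick bars are list medians, dotted lines the 1.5-fold limits and the thin line the median of all genes counted. Red points are past the limit upward and blue points downward; the medians run from −0.37 for adipokines to 0.73 for the genes of white-like adipocytes.

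In the growth hormone and insulin list, the receptor gene Ghr rose while its target Cish fell. Ghr, the growth hormone receptor gene, went from 2356 to 4178 CPM, a ratio of 1.77 (1.75 to 1.80). Cish, a target and feedback inhibitor of the STAT5 pathway that this receptor uses, went from 97.4 to 28.1 CPM, a ratio of 0.288 (0.261 to 0.318). Grb14, an inhibitor of the insulin receptor, fell from 105 to 56.0 CPM. The other 13 of 16 genes were not past the limit, so that 1 rose and 2 fell, beside 3.18% and 3.79% of all genes counted. Foxo1 had a log2 ratio of 0.24. The median of the list was −0.22.

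Steroid and thyroid hormone genes were lower more often than higher, with 4 falls and 1 rise among 14 counted, against 3.79% and 3.18% of all genes counted, and a median of −0.31. Fkbp5 and Zbtb16, both induced by glucocorticoids in many tissues, went from 400.5 to 166 CPM and from 2420 to 1178 CPM. In other-cell nuclei the same genes stood at 901 and 871 CPM and at 4186 and 3773 CPM. After every nucleus was thinned to 1000 UMIs, 81.2% of adipocyte nuclei had a Zbtb16 UMI at 1 month and 51.3% at 2 months, against 89.0% and 86.9% of other-cell nuclei. Thra, a thyroid hormone receptor gene, fell from 119 to 68.8 CPM. Thrb, the other receptor gene, had a log2 ratio of 0.25.

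Of 13 iron genes counted, 4 fell and none rose, beside 3.79% and 3.18% of all genes counted, and 9 were not past the limit. The median was −0.32. Under 7 of the 13 alternatives, both rescalings among them, 1 gene of the list rose. Tfrc, the transferrin receptor gene that brings iron into the cell (chr16:32608920-32632794, plus strand), went from 1534 to 564 CPM, a ratio of 0.367 (0.359 to 0.376). Steap3, a reductase gene of the same uptake route, went from 67.5 to 23.8 CPM, and its level in other-cell nuclei was 68.9 and 97.0 CPM. Slc25a37, the mitochondrial iron importer mitoferrin 1, fell from 56.5 to 27.7 CPM and Slc40a1, the iron exporter ferroportin, from 21.2 to 9.39 CPM, the latter not past the limit after thinning before the choice. Aco1, an iron-sensing regulator, had a log2 ratio of −0.37 and was not past the limit.

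Of 7 genes of nerve and vessel signalling, receptors as well as ligands, 3 fell and none rose. Over all genes counted 3.79% and 3.18% did, and the median of the list was −0.36. Both rescalings, at least 1000 genes per nucleus, removal of doublet scores and no level filter each gave 1 rise. Ntrk3, a neurotrophin receptor gene, went from 3592 to 1792 CPM, a ratio of 0.499 (0.492 to 0.506). Angpt1, a ligand that steadies vessels, fell from 601 to 262 CPM, and Gfra1, a receptor of glial neurotrophic factor, from 15.3 to 6.29 CPM. Gfra1 stood at 17.4 and 15.5 CPM in other-cell nuclei, above the adipocyte nuclei, and was not past the limit in the mean over nuclei. Vegfa, the vessel growth factor gene, fell from 1634 to 965 CPM among 9 adipokine genes, of which 3 fell and 1 rose, beside the same shares. The other falls were Lep, the leptin gene, from 60.0 to 30.9 CPM, and Ptgds, a prostaglandin synthase gene, from 25.3 to 12.8 CPM. Ptgds was not past the limit under either rescaling, after thinning before the choice or in the mean over nuclei. Nrg4, a secreted factor of brown fat, had a log2 ratio of 0.36.

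The counted genes of the list for white-like adipocytes were higher, with Lep as the exception. Of 6 counted among 9, 5 rose and 1 fell, against 3.18% and 3.79% of all genes counted, and the median was 0.73. Without the muscle nuclei 4 rose and 1 fell, and 3 rose in nuclei with at least 1000 genes, after thinning before the choice and in the mean over nuclei. In mPRAT none of the list passed the limit, with Cyp2e1 just under it at a log2 ratio of 0.55. Cyp2e1, a cytochrome P450 gene, went from 85.6 to 203 CPM, a ratio of 2.38 (2.23 to 2.54), and Slc7a10, an amino acid transporter gene of white fat, from 55.7 to 120.1 CPM. Retn, the resistin gene, went from 15.4 to 34.7 CPM and Nnat, an imprinted gene, from 135 to 214 CPM. Aldh1a1, a retinaldehyde dehydrogenase gene, went from 43.1 to 72.8 CPM, but it stood at 184 and 325 CPM in other-cell nuclei, and without the muscle nuclei its log2 ratio was −0.20. After thinning, Cyp2e1 was seen in 3.78% of adipocyte nuclei at 1 month and 7.82% at 2 months, Slc7a10 in 2.54% and 5.16%, and both in at most 1.21% of other-cell nuclei. Unthinned, the shares in adipocyte nuclei were 4.91% and 10.2% for Cyp2e1 and 3.34% and 7.65% for Slc7a10. Nnat was not past the limit in nuclei with at least 1000 genes, after thinning before the choice, or in the mean over nuclei. The 6-month library had Cyp2e1 at 10.3 CPM and Slc7a10 at 15.0.

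Among 22 adipocyte regulators, 2 fell and 2 rose, where 3.79% and 3.18% of all genes counted did. Ebf3 and Cebpb, an early B cell factor gene and a C/EBP gene of early adipogenesis, fell from 1280 to 562 CPM and from 239.7 to 108 CPM. Zfp516, a zinc finger gene of the brown programme, rose from 54.5 to 90.0 CPM and was lower than in other-cell nuclei in both libraries. Tbx15, a T-box factor gene, rose from 36.2 to 67.9 CPM. Its call was lost without the muscle nuclei and held under 7 of the 12 alternatives that kept the 1.5-fold limit. Of 18 clock genes none rose and 3 fell, beside the same shares, among them the output factor genes Hlf and Tef, from 213 to 101 and from 918 to 509.7 CPM. The hour of tissue collection is not given in the labels used here. In the matrix list, 1 of 14 genes counted rose and 2 fell, beside the same shares. Lamb1, a laminin gene, rose from 178 to 313 CPM. Hspg2 and Col4a5, of basement membranes, fell from 179.6 to 92.2 and from 35.2 to 15.5 CPM. Without the muscle nuclei that list had 3 falls and 1 rise. Of 7 imprinted growth genes, Nnat rose and Meg3 fell, beside the same shares. Meg3 was at 43.7 and 23.8 CPM against 856 and 719 CPM in other-cell nuclei. Its call was lost when doublet scores were removed, after thinning before the choice and in the mean over nuclei.

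Stress and interferon lists had 1 call between them, where 3.18% of all genes counted rose and 3.79% fell. Nr4a1, an immediate-early gene, rose from 18.4 to 33.9 CPM. Its call was lost without the muscle nuclei and held under 7 of the 12 alternatives that kept the 1.5-fold limit. The other 5 of 6 immediate-early and heat shock genes, the 8 integrated stress genes and the 6 interferon genes were not past the limit. None of 10 genes of dividing cells reached 10 CPM. Of 66 ribosomal protein genes counted, 9 rose and none fell, beside 3.18% and 3.79% of all genes counted, with a median of 0.31. The rises were 11 without the muscle nuclei, 15 of 67 after thinning before the choice and 18 with 1 CPM added. Over all genes then counted, rises were 182 of 8279, 179 of 8232 and 404 of 8394, in that order. The list had 7 rises after removal of doublet scores, 8 of 63 with at least 1000 genes per nucleus and 0 at a limit of 2-fold. Rises over all genes were then 291 of 8302, 290 of 8368 and 111 of 8394. The ribosomal protein share of all adipocyte UMIs was 0.150% at 1 month and 0.204% at 2 months. The mitochondrial share was 0.512% and 0.462%, and that of the nuclear RNA Malat1 3.19% and 4.27%. The part of these shares in other differences was not tested.

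The largest falls by the same rule were in genes of diverse roles. Gdpd5, a glycerophosphodiesterase gene (chr7:99381414-99461877, plus strand), went from 191 CPM (183 to 198) to 37.3 CPM (34.7 to 40.1), a ratio of 0.196 (0.181 to 0.212). Fras1, an extracellular matrix gene, went from 49.0 to 4.65 CPM. Ano1, a chloride channel gene, fell from 147 to 41.0 CPM and stood at 84.0 and 75.4 CPM in other-cell nuclei. Ivns1abp, an actin-binding kelch gene, went from 1004 to 352 CPM, a ratio of 0.351 (0.341 to 0.361). Cdh2, the N-cadherin gene, fell from 475 to 167 CPM. Kng2, Fam20c, Rab11fip4, Nrbp2 and Tnk2 were also among the 12, with Cish, at log2 ratios from −1.55 to −1.45. All 12 falls were called under each of the 12 alternatives that kept the 1.5-fold limit and without the muscle nuclei.

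The share of nuclei with at least 1 UMI was compared after each nucleus was thinned to 1000 UMIs, which left out 2453 adipocyte nuclei at 1 month and 1936 at 2 months. Gk was seen in 12.2% (11.4 to 13.1) of adipocyte nuclei at 1 month and 49.0% (47.9 to 50.1) at 2 months, and in 2.18% and 8.48% of other-cell nuclei. The unthinned shares in adipocyte nuclei were 17.2% and 60.8%. Dio2 was seen in 3.65% (3.20 to 4.15) and 16.1% (15.3 to 16.9), unthinned 4.99% and 23.3%, with 0.291% and 1.56% in other-cell nuclei. Adcy3 was seen in 16.2% and 40.5% of adipocyte nuclei, unthinned 22.2% and 54.0%, and in 6.11% and 6.23% of other-cell nuclei. Gk had UMIs in a larger share of nuclei at 2 months both inside the adipocyte class and, at lower shares, outside it.

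Genes that fell were seen in fewer adipocyte nuclei. Tfrc was seen in 73.0% (71.9 to 74.1) of adipocyte nuclei at 1 month and 37.8% (36.8 to 38.9) at 2 months, unthinned 80.7% and 52.0%, and in 14.2% and 6.75% of other-cell nuclei. Acly was seen in 41.5% and 17.4%, unthinned 50.0% and 26.6%, and in 9.45% and 4.15% of other-cell nuclei. Ntrk3 was seen in 93.0% and 76.3%, unthinned 94.3% and 85.2%, so most adipocyte nuclei still had a UMI at 2 months. Ucp1 was seen in 26.7% (25.6 to 27.8) and 34.4% (33.3 to 35.4), unthinned 34.1% and 45.4%, and in 3.78% and 5.36% of other-cell nuclei. The median depth of other-cell nuclei was 1020.0 and 1117 UMIs.

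**Figure D3:**
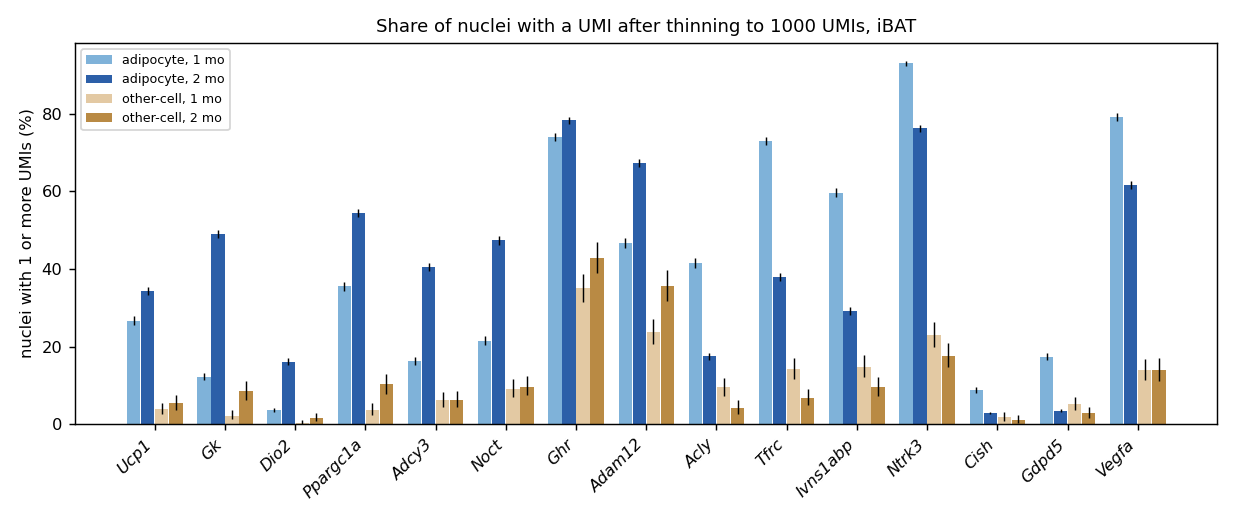
Bars give the percentage of nuclei with 1 or more UMIs of a gene after thinning to 1000 UMIs, for adipocyte nuclei (blue) and other-cell nuclei (brown) at 1 month (light) and 2 months (dark), with 95% exact binomial intervals that cover counting error only. Gk goes from 12.2% to 49.0% and Tfrc from 73.0% to 37.8% of adipocyte nuclei.

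The later iBAT libraries place these levels. Their titles state 6 months and their characteristics 16 weeks, and they were kept at 22 °C or at 4 °C for 3 days. Their adipocyte nuclei had medians of 2307 UMIs at 22 °C and 6745 at 4 °C, against 1342 and 1531 at 1 and 2 months. The part of this depth in the choice of nuclei and in the levels was not tested. The 2-month library enters both intervals, so the values are set side by side. Gk stood at 638 CPM in the 6-month library at room temperature and 1589 CPM in the cold, Ppargc1a at 1091 and 1465, and Adcy3 at 353 and 813. Dio2 stood at 63.7 CPM in the 6-month library and at 219 CPM in the cold. Noct stood at 325 and 704 CPM. Ucp1 stood at 425 and 1454 CPM. Of these 6 genes, Ppargc1a alone was not lower at 6 months than at 2 months, and Noct alone was lower in the cold at 6 months than at 2 months.

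Among the falls, Tfrc stood at 223 CPM at 6 months and Zbtb16 at 185, below their 2-month levels. Fkbp5, at 12.1 CPM, was also below. Acly stood at 814 CPM, above its 1-month level, and Fasn at 957. Ntrk3 stood at 5980.2 CPM and Angpt1 at 465, both above their 2-month levels. Ivns1abp stood at 340.2 and Gdpd5 at 43.7 CPM, near their 2-month levels. Ghr stood at 1789 CPM, below both younger libraries.

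**Figure D4:**
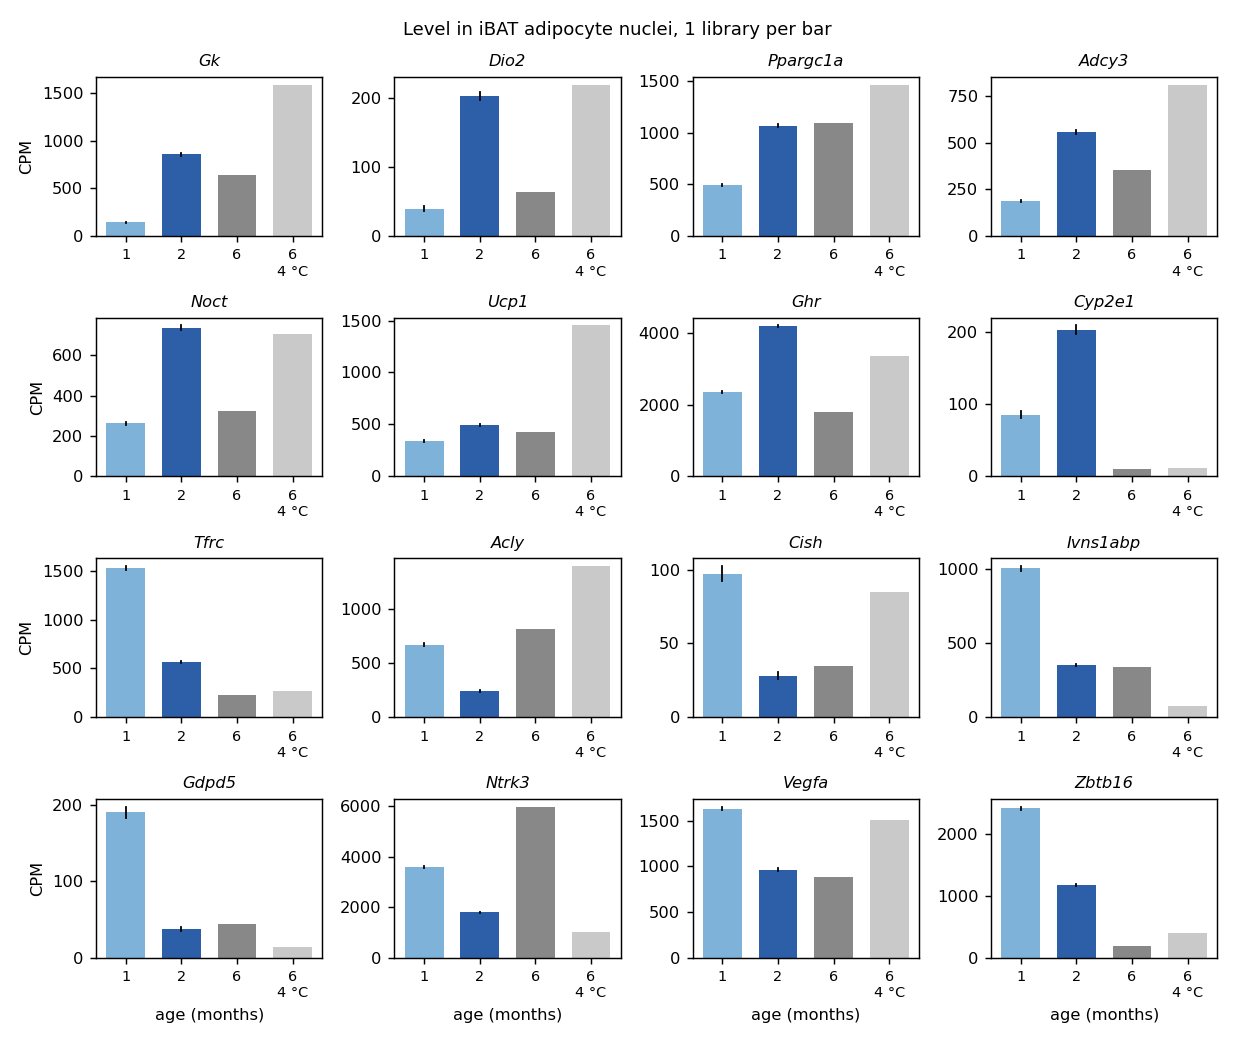
Each panel gives the level of 1 gene (CPM, axis from 0) in adipocyte nuclei of the 4 iBAT libraries: 1, 2 and 6 months at 22 °C and 6 months at 4 °C. Each bar is 1 library, and the lines on the first pair are 95% exact Poisson intervals; Gk is at 142, 855, 638 and 1589 CPM, and Tfrc at 1534, 564, 223 and 262 CPM.

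The same ages were available in mPRAT, whose 2 libraries share no sample with those of iBAT and had 2678 and 4165 adipocyte nuclei. There 470 of 8736 genes (5.38%) rose and 459 (5.25%) fell. Among the 7881 genes counted in both depots, 69 rose in both, which is 35.0% of 197 iBAT rises and 30.3% of 228 mPRAT rises. The falls shared 130 genes, 45.1% of 288 in iBAT and 31.8% of 409 in mPRAT. Over all 7881 genes counted in both, 228 rose and 409 fell in mPRAT. Without the muscle nuclei 7834 genes were counted in both, of which 215 rose and 405 fell in mPRAT. Shared were then 68 of 174 iBAT rises (39.1%) and 127 of 294 iBAT falls (43.2%). The muscle marker sum in mPRAT adipocyte nuclei was 132 and 80.6 CPM.

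Many of the named genes passed the limit in both depots. Gk stood at 101 and 579.5 CPM in mPRAT, Dio2 at 9.98 and 159.5, Ppargc1a at 209 and 561, Adcy3 at 113 and 254 and Noct at 138 and 493. Ucp1, at 107 and 231 CPM, was past the limit in mPRAT with a log2 ratio of 1.05, against 0.55 in iBAT. Ghr rose in mPRAT from 3499 to 6097 CPM and Tfrc fell from 409.7 to 150.1. Acly fell from 457 to 155 CPM and Cish from 92.5 to 43.3. Genes past the limit in iBAT and not in mPRAT included Adrb3 (269.7 and 279.8 CPM in mPRAT) and Fras1 (25.3 and 35.2). They also included Slc7a10 (169.8 and 172), Fkbp5 (298 and 339) and Cebpb (139.7 and 137). Angpt1 (522 and 442) was another and was lower at 2 months in both depots. Cyp2e1, at 554 and 816 CPM in mPRAT, was higher at 2 months in both, with a ratio there of 1.475 (1.42 to 1.54) just under the limit. With 1 library per group, a difference between the depots was not tested.

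A few genes went opposite ways, 8 of the 197 iBAT rises and 4 of the 288 falls among genes counted in both depots. Over all 7881 genes counted in both, 409 fell and 228 rose in mPRAT. Whether the opposite calls depart from those shares was not tested. Of the 12 opposite genes, 7 were also called in iBAT without the muscle nuclei. Neat1, a nuclear long non-coding RNA, rose in iBAT from 3275 to 5029 CPM and fell in mPRAT from 6808 to 3486 CPM. Ntn1, the netrin gene, fell in iBAT from 26.0 to 13.4 CPM and rose in mPRAT from 20.3 to 55.7 CPM. Epb41l3, a membrane skeleton gene, fell from 18.4 to 8.18 CPM and rose from 19.1 to 62.9 CPM. Dock8 and Pkp4 fell in iBAT and rose in mPRAT, and Mageb18 and Aspg rose in iBAT and fell in mPRAT.

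**Figure D5:**
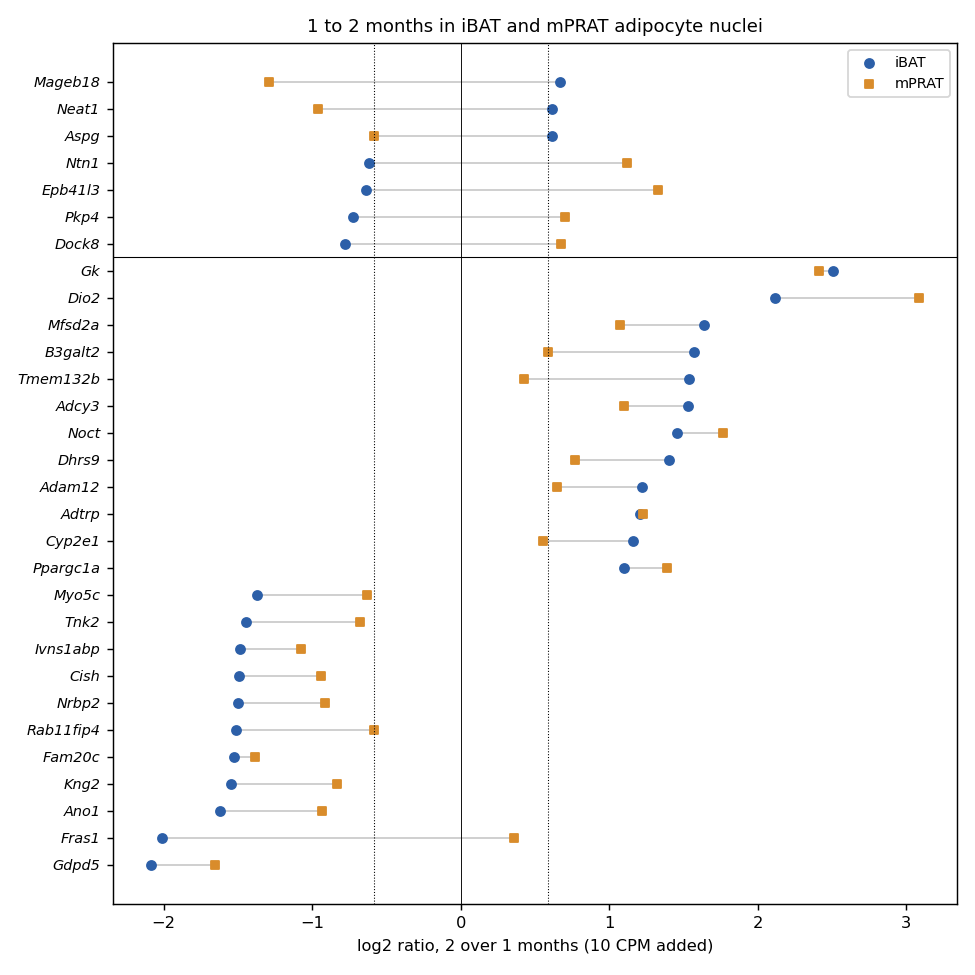
Blue circles and orange squares give the log2 ratio of 2 over 1 months (10 CPM added) in adipocyte nuclei of iBAT and mPRAT, for genes from the 12 largest rises and the 12 largest falls by the naming rule in iBAT without muscle nuclei (below the line) and the 7 genes that went opposite ways (above it); ratios plotted are those of all adipocyte nuclei, and dotted lines are the 1.5-fold limits. Gk is at 2.50 and 2.41, while Fras1 is at −2.01 in iBAT and 0.36 in mPRAT.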

How the data were processed

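Single-nucleus RNA libraries were deposited as UMI counts per gene and barcode, unnormalized. Per the file headers the authors made these counts with Cell Ranger 7.0.0, and the submitters' processing notes name mm10. The annotation, the use of intronic reads and later filters are not given in the sources used here. Of 32285 gene identifiers, 32158 were found in GENCODE M21 (GRCm38), which gave the positions.

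Counts were summed over the adipocyte nuclei of each library and divided by their total (CPM). Ratios used log2(CPM + 10), with a mean of at least 10 CPM and a limit of 1.5-fold. The 12 genes of the choice were left out of counted genes. No doublet caller was used in the main values. Intervals are exact Poisson for CPM, exact conditional binomial for ratios and Clopper-Pearson for shares, at 95%. The calculation was tested on simulated counts that held counting error only, which cannot show how animals or libraries differ.

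Named genes were the 12 largest rises and falls whose level was at least that of other-cell nuclei in the higher library, without predicted, ribosomal protein, mitochondrial, Y-linked and marker genes and Xist. In each list, up to 6 called members per direction and the 2 at the highest mean level were candidates, and Ucp1 was always given. The members and lists were chosen with earlier results of these data known. Rescaling used edgeR 4.0.16 and DESeq2 1.42.0 factors, and doublet scores scanpy 1.11.5. Python 3.11.15, numpy 2.4.6 and R 4.3.3 were used. Some genes that met these rules are not reported here.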

Additional observations from a re-analysis of the deposited data

Results flagged for a closer look

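Ctnna3, an α-catenin gene found in muscle and other tissues, went opposite ways in the 2 depots. Its log2 ratio was 1.95 in iBAT (15.9 and 89.9 CPM) and −1.09 in mPRAT (27.0 and 7.36 CPM). The difference was not tested, and without the nuclei with muscle UMIs the gene was under 10 CPM in iBAT.

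Nuclei that were neither adipocyte nor other-cell enter no comparison. In the iBAT library of 2 months their 12 muscle markers summed to 37382 CPM, against 5259 CPM at 1 month.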

How the results depend on the processing

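Against 267 rises and 318 falls, adding 1 CPM in place of 10 gave 404 and 562, and a limit of 2-fold gave 111 and 73. The other 11 alternatives gave 179 to 354 rises and 244 to 350 falls. They were stricter adipocyte, gene and mitochondrial limits, thinning before the choice, removal of doublet scores or of muscle nuclei, 2 rescalings, no level filter, the mean over nuclei, and Acsl1 left out, which was chosen after seeing the data. The log2 ratio of Aldh1a1 was 0.64 and turned to −0.20 without the muscle nuclei. Of 108 named genes past the limit, 69 were past it under every alternative that kept the 1.5-fold limit. Some lists with no rise or no fall gained 1 or 2 such calls under some alternatives, as the respiratory chain did under TMM scaling (1 rise) and interferon genes with 1 CPM added (2 falls), while cholesterol synthesis and branched-chain amino acid genes had no call under any. TMM scaling moved the median of all genes from 0.01 to 0.07, and median-of-ratios scaling to 0.09. No paired analysis was possible because each group was 1 library, and no library could be left out. Depth limits the low genes, since a count of 0 allows up to 3 counts.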
